A study of Homo sapiens with 15 samples.

Results

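The genes described here are HMGCS1, IDI1, FDFT1, SQLE, LSS and DHCR7, which encode enzymes of cholesterol synthesis, and INSIG1 and SREBF2, which encode regulators of those enzymes. They were chosen by name, and all 8 were found among the 23368 genes of the count table. RNA was sequenced from 3 clones of brain metastatic breast cancer cells, each grown out from a single cell, in which an RBM47 transgene is switched on by doxycycline through a Tet-inducible retroviral vector. RBM47 is an RNA-binding protein. WT6 and WT10 cells carry FLAG-tagged wild type RBM47, and MUT3 cells carry the frameshift mutant RBM47-I281fs. The doses of doxycycline were 0, 1, 2.5, 5 and 25 ng/ml, and a single library was made for every clone at every dose, 15 libraries in all. The labels give MDA231 as the line of all 3 clones, whereas the study's methods derive WT6 from CN34-BrM2 and WT10 and MUT3 from an MDA231 derivative. Wild type RBM47 is carried by WT6 and WT10, and the mutant by MUT3 alone. Within the MDA231 derivative each allele is represented by a single clone, so the allele and the clone that carries it cannot be told apart. The time in doxycycline is not given for these libraries in the sources used here.

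Cells build cholesterol from acetyl-CoA through the mevalonate pathway, which yields isoprenoid units, then squalene, then lanosterol and finally cholesterol. The transcription factor SREBP2, encoded by SREBF2, switches on the genes of nearly all of these enzymes when sterols in the endoplasmic reticulum are low. INSIG1 holds SREBP2 and its escort protein SCAP in the endoplasmic reticulum when sterols are high, and it is itself a target gene of SREBP2.

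Reads assigned to genes ran from 14955172 to 44771871 per library, and between 188 and 5525 reads stood behind each value of the 8 genes. RBM47 was present at 258 normalized counts in untreated WT6 cells, 168 in WT10 and 74 in MUT3, and at 10425, 19877 and 22084 at 25 ng/ml. At 1, 2.5 and 5 ng/ml it stood at 3137, 8094 and 3966 in WT6, at 827, 2822 and 8134 in WT10, and at 92, 336 and 949 in MUT3. The MUT3 library at 25 ng/ml was thus the only library of that clone with RBM47 RNA above that of WT10 cells at 2.5 ng/ml. These are RNA values. In non-clonal cells of the line of MUT3, the study detected no mutant protein after doxycycline and described that protein as unstable and inactive. Epithelial and mesenchymal markers of such lines were present in every library (KRT8 at 8159 or more, VIM at 50755 or more), and PTPRC of leukocytes and PECAM1 of endothelium reached at most 6.18 and 9.19. The epithelial keratins KRT8 and KRT18 were themselves higher at 25 ng/ml than untreated, 2.24-fold and 2.35-fold in WT6, 1.47-fold and 1.67-fold in WT10, and 1.18-fold and 1.08-fold in MUT3, whereas VIM ran from 0.837-fold to 1.14-fold, and CD44 was 0.693-fold in WT6 and 1.05-fold in WT10 and MUT3. The WT6 libraries at 5 and 25 ng/ml stood apart from the rest: against untreated WT6 cells, genes in the lowest quintile of transcript length had a median log2 change of 0.60 and 0.58, and genes in the highest quintile -0.41 and -0.46. In the other 10 treated libraries the same medians lay between -0.08 and 0.06.

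The promoters of the genes that moved most with dose are shown because these genes share a known regulator. RefSeq windows of 300 bases, from 250 bases before to 50 bases after a gene's start (build GRCh38.p14), were found for 6 of the 8 genes, in 10 windows, and not for SQLE and FDFT1. Capitals mark matches, on either strand, to TCACNCCAC, a core of the sterol regulatory element bound by SREBPs, and to CCAAT, the box bound by NF-Y, which reads ATTGG on the other strand. The window printed for each gene is the first of its windows that holds CCAAT, so a CCAAT match in it was fixed by this choice.
HMGCS1, chr5:43313363-43313662, minus strand: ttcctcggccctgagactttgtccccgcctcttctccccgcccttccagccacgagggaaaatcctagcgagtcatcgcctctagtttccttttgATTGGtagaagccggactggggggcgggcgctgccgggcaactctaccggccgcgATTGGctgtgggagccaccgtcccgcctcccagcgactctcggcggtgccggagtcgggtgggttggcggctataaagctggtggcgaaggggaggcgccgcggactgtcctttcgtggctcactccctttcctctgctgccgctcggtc
IDI1, chr10:1048837-1049136, minus strand: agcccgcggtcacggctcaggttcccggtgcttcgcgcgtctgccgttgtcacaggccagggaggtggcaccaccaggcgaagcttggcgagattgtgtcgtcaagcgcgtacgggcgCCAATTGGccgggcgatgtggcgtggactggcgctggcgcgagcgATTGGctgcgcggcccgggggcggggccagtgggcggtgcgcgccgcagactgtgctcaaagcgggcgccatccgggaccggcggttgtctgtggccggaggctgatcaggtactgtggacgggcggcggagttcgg
INSIG1, chr7:155297628-155297927, plus strand: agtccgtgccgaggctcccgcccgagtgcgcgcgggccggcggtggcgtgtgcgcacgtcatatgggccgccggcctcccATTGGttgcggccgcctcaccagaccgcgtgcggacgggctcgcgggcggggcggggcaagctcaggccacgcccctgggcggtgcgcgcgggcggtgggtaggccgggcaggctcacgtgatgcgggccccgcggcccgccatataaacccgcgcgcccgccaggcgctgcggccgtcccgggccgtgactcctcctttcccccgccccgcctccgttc
SREBF2, chr22:41832855-41833154, plus strand: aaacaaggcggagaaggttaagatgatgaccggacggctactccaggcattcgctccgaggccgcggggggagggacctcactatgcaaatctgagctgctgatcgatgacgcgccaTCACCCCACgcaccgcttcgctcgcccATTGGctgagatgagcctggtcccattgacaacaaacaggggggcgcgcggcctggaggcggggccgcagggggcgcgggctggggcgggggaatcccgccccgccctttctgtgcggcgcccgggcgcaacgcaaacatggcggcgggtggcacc
CCAAT was found in 7 of the 10 windows, against 34.6% of the 35116 promoters in the same set. Each of the 6 genes had it in at least 1 window, but HMGCS1 and DHCR7 have 2 windows each and IDI1 has 3. That count per gene therefore cannot be set against the share per promoter. In the IDI1 window shown, CCAAT and ATTGG overlap, 132 and 129 bases before the start. TCACNCCAC was found in SREBF2 alone, 133 bases before the start and apart from the ATTGG at 106 bases, against 1.13% of all promoters. A looser form, TCANNCCAC, also matched INSIG1, 108 bases before the start, and was found in 3.82% of all promoters. These matches are letters in a window, and binding was not measured.

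HMGCS1, which makes HMG-CoA at the entry to the mevalonate pathway (hg19 chr5:43287572-43313614, minus strand), ran from 235 to 5544 normalized counts over the 15 libraries, the widest range of the 8 genes as a ratio. In WT6 cells its normalized count was 2228 untreated and 2514, 3999, 4294 and 5544 at 1, 2.5, 5 and 25 ng/ml. In WT10 cells it was 440, 492, 525, 563 and 890 over the same doses. In MUT3 cells it was 235, 251, 260, 259 and 255. HMGCS1 was therefore higher at each higher dose in both wild type clones, while the 5 MUT3 libraries lay close together and below all of the wild type libraries. Relative to the untreated library of the same clone, HMGCS1 at 25 ng/ml was 2.49-fold in WT6 (exact 95% interval of counting error 2.36 to 2.62), 2.02-fold in WT10 (1.79 to 2.28) and 1.08-fold in MUT3 (0.891 to 1.32).

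IDI1 isomerizes isopentenyl diphosphate, the first isoprenoid unit (hg19 chr10:1085092-1095059, minus strand). Its normalized count in WT6 cells was 2344, 2661, 3355, 4801 and 5316 with increasing dose. In WT10 cells it was 1290, 1328, 1620, 1846 and 2865. In MUT3 cells it was 1271, 1344, 1310, 1327 and 1225. The 3 clones differed in level far less than for HMGCS1, and untreated WT10 and MUT3 cells were within 1.01-fold of each other, but again only the wild type clones were higher at each higher dose. At 25 ng/ml the ratio to the untreated library was 2.27 in WT6 (2.15 to 2.39), 2.22 in WT10 (2.08 to 2.38) and 0.964 in MUT3 (0.885 to 1.05).

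**Figure D1:**
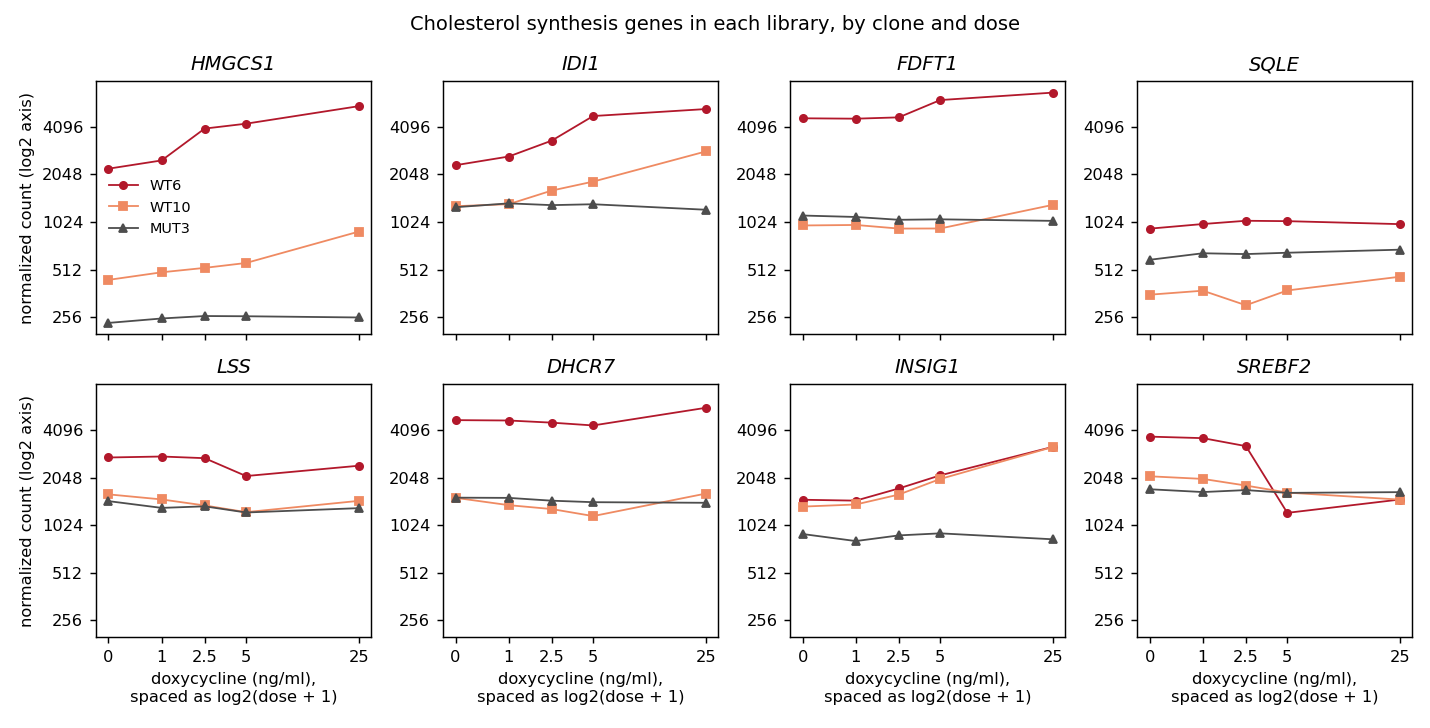
Normalized count (log2 axis) of each of the 8 genes in every library against doxycycline dose, with 1 point per library and a line per clone. HMGCS1, IDI1 and INSIG1 climb in WT6 and WT10 cells and stay level in MUT3 cells, and SREBF2 in WT6 cells drops from 3248 at 2.5 ng/ml to 1228 at 5 ng/ml.

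FDFT1, squalene synthase (hg19 chr8:11653082-11696904, plus strand), makes the first product committed to sterols. Its normalized count in WT6 cells was 4647, 4620, 4710, 6062 and 6756 with increasing dose. In WT10 cells it was 974, 981, 931, 932 and 1315, and in MUT3 cells 1125, 1102, 1058, 1065 and 1041. The values of WT6 cells were flat up to 2.5 ng/ml, and in WT10 cells only the library at 25 ng/ml was above the others. In the WT6 libraries at 5 and 25 ng/ml the log2 change of FDFT1 was 0.38 and 0.54. Genes of its length quintile had medians of 0.16 and 0.20 there. The ratio at 25 ng/ml was 1.45 in WT6 (1.40 to 1.51), 1.35 in WT10 (1.24 to 1.47) and 0.925 in MUT3 (0.845 to 1.01).

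The later enzymes SQLE, LSS and DHCR7 did not pass the dose test described below in any clone when all libraries were fitted. SQLE, squalene epoxidase (hg19 chr8:126010739-126034525, plus strand), spanned 929 to 1043 normalized counts in WT6, 304 to 461 in WT10 and 590 to 684 in MUT3, so that the 3 clones did not overlap. LSS, lanosterol synthase (hg19 chr21:47608055-47648738, minus strand), was lower at 5 ng/ml than in the untreated library of each clone, at 2100 against 2752 in WT6, 1240 against 1608 in WT10 and 1234 against 1457 in MUT3. DHCR7, which carries out the final reduction to cholesterol (hg19 chr11:71139239-71163914, minus strand), was 4745, 4391 and 5679 in WT6 cells at 0, 5 and 25 ng/ml, and 1529, 1171 and 1626 in WT10 cells. In both clones the library at 5 ng/ml was the lowest and that at 25 ng/ml the highest. In MUT3 cells DHCR7 was 1532 untreated and 1422 at 25 ng/ml, the highest and the lowest of the 5 values.

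INSIG1 (hg19 chr7:155089486-155101945, plus strand) had nearly the same levels in both wild type clones. Its normalized count in WT6 cells was 1486, 1467, 1752, 2121 and 3214 with increasing dose. In WT10 cells it was 1345, 1387, 1603, 2012 and 3207, and in MUT3 cells 902, 814, 884, 911 and 835. All 10 wild type libraries were above all 5 MUT3 libraries, and the wild type clones lay within 1.11-fold of each other when untreated. The ratio at 25 ng/ml was 2.16 in WT6 (2.02 to 2.31), 2.38 in WT10 (2.23 to 2.55) and 0.926 in MUT3 (0.836 to 1.03).

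SREBF2 (hg19 chr22:42229109-42303310, plus strand) went the other way. Its normalized count in WT6 cells was 3731, 3649, 3248, 1228 and 1491 with increasing dose. In WT10 cells it was 2092, 2014, 1828, 1650 and 1489, lower at each higher dose. In MUT3 cells it was 1732, 1663, 1711, 1643 and 1660. The 2 low WT6 values came from the libraries that stood apart by transcript length, in which genes of the same length quintile as SREBF2 had median log2 changes of -0.23 and -0.29, against -1.60 and -1.32 for SREBF2. Those genes were matched to SREBF2 on length and not on GC content, which was 58.0% in its transcript. The ratio at 25 ng/ml was 0.400 in WT6 (0.374 to 0.427), 0.712 in WT10 (0.664 to 0.762) and 0.959 in MUT3 (0.891 to 1.03).

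Whether these changes were larger than the scatter of the libraries was tested with limma, in 1 fit over 12644 genes in which each clone has its own level and its own slope of log2(normalized count + 1) on log2(dose + 1). With 1 library per dose, the p-values measure scatter about these lines and not variation between cultures. In bulk RNA a change in the make-up of the culture and a change per cell cannot be told apart. By the same test KRT8 and KRT18 rose in WT6 cells (slopes of 0.26 and 0.29) and in WT10 cells (0.12 and 0.16), CD44 fell in WT6 (-0.12), the fibroblast gene COL1A1 rose in WT10 (0.16), and VIM and EPCAM passed in neither; the part of these changes in the results was not tested. In WT6 cells 4 of the 8 genes rose and 1 fell, against 29.2% of all genes called higher and 28.3% called lower, so that a change by itself was common in this clone. The slope was 0.29 ± 0.03 (SE) for HMGCS1 (limma, adjusted p = 1.6e-05), 0.27 ± 0.03 for IDI1 (2.4e-05), 0.26 ± 0.03 for INSIG1 (1.4e-05) and 0.13 ± 0.03 for FDFT1 (0.0020). SREBF2 fell with a slope of -0.35 ± 0.07 (0.00086). The slopes of SQLE (0.02), DHCR7 (0.05) and LSS (-0.06) did not pass the test. Without the 3 libraries at 25 ng/ml LSS passed as lower (-0.13, adjusted p = 0.048), in a fit that called 37.1% of all genes, and the slope of SREBF2 was -0.55. Without the WT6 libraries at 5 and 25 ng/ml, 2 genes passed, HMGCS1 (0.46, adjusted p = 0.0062) and IDI1 (0.28, 0.020), and 182 of 12644 genes were called in all. In that fit the slope was 0.13 for INSIG1 (0.39), 0.010 for FDFT1 (0.96) and -0.11 for SREBF2 (0.25). With trends of transcript length and GC content removed the same 5 genes passed, in a fit that called 58.6% of all genes. The slope of FDFT1 was then 0.05 (limma, adjusted p = 0.041).

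In WT10 cells 3 of the 8 genes rose and 0 fell, against 10.2% of all genes called higher and 9.83% called lower. These were INSIG1, with a slope of 0.29 ± 0.03 (limma, adjusted p = 3.9e-05), IDI1 with 0.26 ± 0.04 (0.00023) and HMGCS1 with 0.22 ± 0.04 (0.0022). FDFT1 had a slope of 0.09 ± 0.03 (0.065), SQLE 0.08 ± 0.03 (0.11) and SREBF2 -0.11 ± 0.07 (0.29). With WT10 fitted alone SREBF2 fell (-0.11, adjusted p = 0.0049), with the scatter of the gene no longer pooled over the clones. That fit called 28.4% of all genes. Without the WT10 library at 25 ng/ml 0 of the 8 genes passed, in a fit that called 6 of 12644 genes in all, and the slopes were 0.23 for INSIG1, 0.21 for IDI1 and 0.14 for HMGCS1. At 5 ng/ml the ratio to the untreated WT10 library was already 1.50 for INSIG1 (1.41 to 1.59) and 1.43 for IDI1 (1.34 to 1.53). Without the pair of WT6 libraries that stood apart 6 genes passed, FDFT1, SQLE and SREBF2 among them, while the share of all genes called in WT10 cells was 38.9%, against 10.2% higher and 9.83% lower with these libraries.

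In MUT3 cells slopes of the 8 genes lay between -0.03 and 0.04, and 0 of them passed limma's test, nor did any at an unadjusted p under 0.05 or with edgeR. In the fit over all libraries 0% of all genes were called higher and 0% lower in this clone. Even RBM47, at 299-fold in MUT3 cells at 25 ng/ml, did not pass in that fit (limma, adjusted p = 0.052). The lack of calls therefore does not show that genes of this clone did not respond. With MUT3 fitted alone 176 of 12644 genes were called (1.39%), and 0 of the 8. As a median over the 8 genes the slope came to 0.09 for WT6, 0.09 for WT10 and -0.013 for MUT3, beside medians over all genes of 0.0053, -0.0027 and 0.0033.

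**Figure D2:**
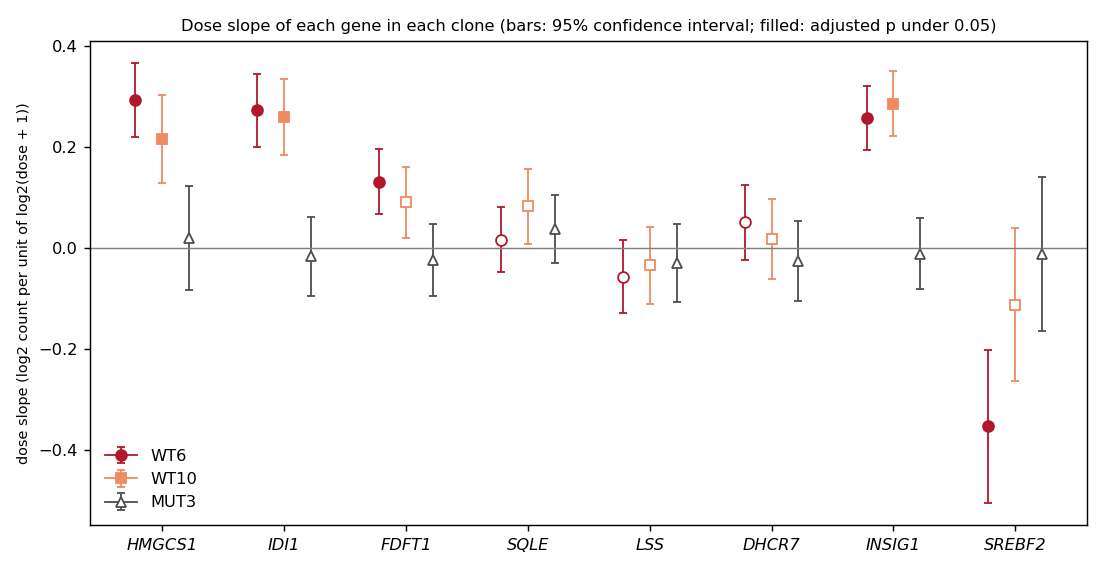
Slope of log2(normalized count + 1) on log2(dose + 1) for each gene and clone, with 95% confidence intervals from the fit over all libraries and filled markers where the adjusted p is under 0.05. HMGCS1, IDI1 and INSIG1 have filled markers in WT6 and WT10 cells, FDFT1 and SREBF2 in WT6 cells alone, and the MUT3 intervals all include 0.

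The clones carrying wild type RBM47 were next compared with the clone carrying the mutant. Averaged over both wild type clones, the slope was above that of MUT3 cells for 4 of the 8 genes, against 10.1% of all genes called higher and 14.6% called lower. The difference was 0.28 ± 0.04 for INSIG1 (limma, adjusted p = 0.00069), 0.28 ± 0.04 for IDI1 (0.0010), 0.23 ± 0.05 for HMGCS1 (0.0085) and 0.13 ± 0.04 for FDFT1 (0.026). For SREBF2 it was -0.22 ± 0.09 (0.075). WT10 and MUT3, which share a parental line in the study's methods, differed for 2 of the 8 genes, against 2.66% of all genes called higher and 2.97% called lower. These were INSIG1 (0.30 ± 0.05, limma, adjusted p = 0.0042) and IDI1 (0.28 ± 0.05, 0.0094), and HMGCS1 differed by 0.20 ± 0.06 (0.079). Without the MUT3 library at 25 ng/ml 0 of the 8 genes passed in either comparison, in fits that called 3 and 2 of 12644 genes in all. The differences then were 0.26 for INSIG1, 0.25 for IDI1 and 0.20 for HMGCS1 in the first comparison, and 0.27, 0.24 and 0.16 in the second. Without the WT10 library at 25 ng/ml 2 genes (IDI1, 0.26, and INSIG1, 0.25) passed in the first, where 8.42% of all genes were called. In the second 0 passed, where 0 of 12644 genes were called and the differences were 0.23 and 0.24. FDFT1 did not pass in the first comparison without that WT10 library (0.07, adjusted p = 0.23), nor without the WT6 libraries at 5 and 25 ng/ml (0.07, 0.25), whereas SREBF2 passed in the latter fit (-0.10, 0.040). The latter fit called 12.6% of all genes in this comparison. At 1 to 5 ng/ml RBM47 RNA was far lower in MUT3 cells than in wild type cells, and its part in these differences was not tested.

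The slopes of WT6 and WT10 cells were not shown to differ for any of the 8 genes, with 0 called by limma and 0 by edgeR, 1 at an unadjusted p under 0.05 (SREBF2), and 7.28% of all genes called higher in WT6 and 7.09% lower. The difference, WT6 minus WT10, was -0.03 for INSIG1 (95% interval -0.12 to 0.06), 0.01 for IDI1 (-0.09 to 0.12) and 0.08 for HMGCS1 (-0.04 to 0.19). For SREBF2 it was -0.24 (-0.46 to -0.03, adjusted p = 0.11). Without the WT6 library at 5 ng/ml the difference in SREBF2 passed (-0.18, limma, adjusted p = 0.0044), in a fit that called 29.4% of all genes. With transcript length and GC content accounted for that of HMGCS1 passed (0.16, 0.033), where 15.2% of all genes were called. Without the WT10 library at 25 ng/ml 1 of the 8 genes passed, DHCR7, and 15.6% of all genes were called.

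The clones also differed before induction. The fitted level without doxycycline was higher in WT6 than in WT10 cells for 7 of the 8 genes and lower for 0, against 30.8% of all genes called higher and 28.8% called lower. The log2 difference was 2.48 ± 0.14 for HMGCS1 (limma, adjusted p = 1.1e-09), 2.29 ± 0.12 for FDFT1 (3.4e-10), 1.72 ± 0.13 for DHCR7 (3.1e-08), 1.56 ± 0.12 for SQLE (3.3e-08) and 1.01 ± 0.13 for IDI1 (6.5e-06). LSS (0.88) and SREBF2 (0.90) also passed, and INSIG1 differed by 0.14 ± 0.11 (0.29). The median difference was 1.28 for the 8 genes and 0.03 for all genes. Between WT10 and MUT3 cells 2 of the 8 genes were higher in WT10, HMGCS1 (0.76 ± 0.16, adjusted p = 0.0030) and INSIG1 (0.46 ± 0.12, 0.0089), and SQLE was lower (-0.88 ± 0.12, 0.00010), against 14.3% of all genes called higher and 13.9% called lower. Without the WT6 library at 5 ng/ml, 5 genes passed in this comparison, with FDFT1 lower and SREBF2 higher in WT10 in addition, and 40.8% of all genes were called. Without the untreated WT10 library INSIG1 did not pass (0.31, 0.10). Over all doses, the 5 values of a gene did not overlap between WT6 and WT10 cells for 5 of the 8 genes, against 44.7% of all genes. Between WT10 and MUT3 cells they did not overlap for 3 of the 8, against 37.1% of all genes.

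Per kb of transcript, the order of the levels in untreated MUT3 cells was DHCR7 at 583 normalized counts per kb, FDFT1 at 553, IDI1 at 464, SREBF2 at 331, INSIG1 at 310, LSS at 298, SQLE at 199 and HMGCS1 at 43.9. The ranges over the 5 MUT3 libraries overlapped for DHCR7 and FDFT1 and for INSIG1 and LSS, and for no other neighbours in this order. In untreated WT10 cells HMGCS1 was again the lowest, at 82.3 per kb, and its range overlapped that of SQLE at 120. In untreated WT6 cells SQLE was the lowest, at 314 per kb, HMGCS1 stood at 416, and FDFT1 was the highest at 2283.

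**Figure D3:**
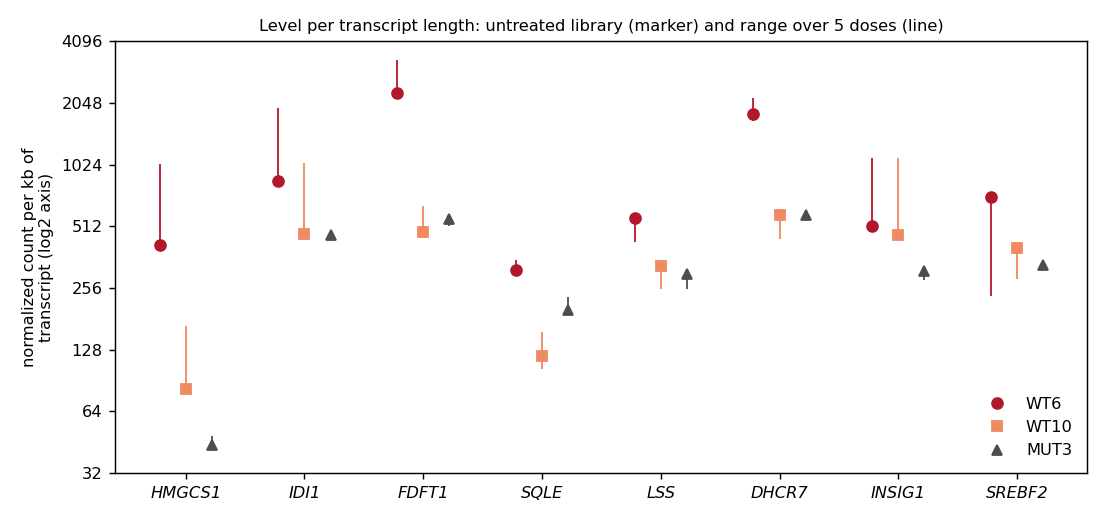
Normalized count per kb of transcript (log2 axis) of each gene in the untreated library of each clone (marker), with the range over the 5 doses of that clone (line). HMGCS1 ranges from 43.9 per kb in untreated MUT3 cells to 1036 in WT6 cells at 25 ng/ml, and INSIG1 starts and ends at nearly the same level in WT6 and WT10 cells.

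The remaining enzymes of sterol synthesis were listed by pathway, 15 in number, and all were fitted. In WT6 cells 12 of them rose and 1 fell, beside 29.2% of all genes called higher and 28.3% lower, with a median slope of 0.14. MSMO1, a sterol methyl oxidase, had a slope of 0.32 ± 0.04 (limma, adjusted p = 1.7e-05), TM7SF2 and NSDHL, which act after lanosterol, 0.30 and 0.26, and FDPS, which makes the farnesyl diphosphate used by FDFT1, 0.25. In WT10 cells 3 rose and 0 fell, beside 10.2% and 9.83% of all genes, with a median slope of 0.05: MSMO1 (0.35 ± 0.04, 7.4e-05), SC5DL, a sterol desaturase (0.26), and CYP51A1, lanosterol demethylase (0.12). MSMO1 stood at 671 normalized counts in untreated WT10 cells and 1931 at 25 ng/ml, at 3202 and 8428 in WT6 cells, and at 793 and 738 in MUT3 cells. In MUT3 cells 0 of the 15 passed, in a clone where limma called 0 genes in all and edgeR 1. With MUT3 fitted alone ACAT2, another enzyme of this list, passed as lower. Against MUT3 cells, the mean wild type slope was higher for 7 of the 15, beside 10.1% of all genes called higher and 14.6% lower. The WT10 slope was higher for 2, MSMO1 (0.37) and SC5DL (0.26), beside 2.66% of all genes called higher and 2.97% lower. With single libraries left out these differences ran from 0.21 to 0.44 and from 0.24 to 0.28. The adjusted p then reached 0.41 for each (limma). Without the WT6 libraries at 5 and 25 ng/ml, 3 of the 15 rose in WT6 cells, beside 1.44% of all genes called. These were the same 3 as in WT10 cells (CYP51A1, MSMO1 and SC5DL). The slopes of NSDHL, FDPS and TM7SF2 were then 0.07, 0.02 and -0.0072, and without the WT6 library at 25 ng/ml alone that of TM7SF2 was 0.13 (adjusted p = 0.18). Without the WT10 library at 25 ng/ml the WT10 slopes were 0.19 for MSMO1, 0.24 for SC5DL and 0.07 for CYP51A1, and none of the 3 passed. Without all 3 libraries at 25 ng/ml, 0 genes of this list and of the 4 below passed limma's test in WT10 cells, where 17 of 12644 genes did.

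Genes of sterol sensing and SREBP processing were mostly lower with dose in WT6 cells, where 2 of 10 rose and 6 fell, beside 29.2% and 28.3% of all genes, with a median slope of -0.10. Among them were MYLIP, an E3 ubiquitin ligase induced by liver X receptors (-0.30), SREBF1, which encodes SREBP1 (-0.19), FAF2, a factor of protein degradation at the endoplasmic reticulum (-0.16), and INSIG2, the close relative of INSIG1 (0.25). In WT10 cells 1 rose and 1 fell, beside 10.2% and 9.83% of all genes. These were INSIG2 with a slope of 0.34 ± 0.04 (limma, adjusted p = 0.00019) and MYLIP with -0.25 ± 0.06 (0.012). INSIG2 stood at 323 and 836 normalized counts in WT10 cells untreated and at 25 ng/ml, at 230 and 504 in WT6 cells, and at 445 and 455 in MUT3 cells. INSIG2 also differed between WT10 and MUT3 cells (0.33, 0.011), and MYLIP did so narrowly (-0.31, 0.050). With single libraries left out the INSIG2 difference ran from 0.25 to 0.41, and its adjusted p reached 0.44 (limma). The MYLIP difference did not pass with edgeR (adjusted p = 0.061 and 0.068 under the authors' and TMM scaling) or without the filter on low values (0.053). Without the WT10 library at 25 ng/ml the slope of MYLIP in WT10 cells was -0.05 (0.80) and its difference from MUT3 -0.12 (0.65). In WT6 cells MYLIP did not pass without the library at 25 ng/ml (-0.21, 0.21), whereas the slopes of INSIG2 and SREBF1 were then 0.42 and -0.38. Without the WT6 libraries at 5 and 25 ng/ml, 0 of the 10 passed limma's test in WT6 cells.

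The other lists were mixed. Of the genes of sterol storage, transport and efflux, 8 of 10 were fitted; 5 rose and 1 fell in WT6 cells, and 2 rose and 1 fell in WT10 cells. For this list and those that follow, the shares of all genes were again 29.2% higher and 28.3% lower in WT6, and 10.2% and 9.83% in WT10. LIPA, lysosomal acid lipase, rose in both clones (0.16 and 0.12), whereas CYP27A1, sterol hydroxylase, had slopes of 0.30 in WT6 cells and -0.22 in WT10 cells. In WT6 cells it was at 12 to 20 normalized counts up to 5 ng/ml and at 37 at 25 ng/ml, and without that library the slope was 0.02 (adjusted p = 0.93). It also did not pass in WT6 with that clone fitted alone (0.067), with ranks of dose (0.051) or with trends of length and GC content removed (0.087). In WT10 cells CYP27A1 went from 83 to 40. ABCA1, a cholesterol efflux pump, fell in WT6 cells (-0.27). Of 10 genes of fatty acid synthesis and desaturation, 2 rose and 4 fell in WT6 cells. Among those that fell were ACACA (-0.20) and FASN (-0.19), the carboxylase and synthase of the pathway. With single libraries left out, their slopes ran from -0.31 to -0.19 and from -0.40 to -0.15. The adjusted p of FASN then reached 0.060 (limma), and FASN did not pass with WT6 fitted alone. In WT10 cells ME1 (0.14) and SCD (0.08) rose and 0 fell. Of 8 genes of the isoprenoid branches, 7 were fitted; 4 rose and 1 fell in WT6 cells and 2 rose in WT10 cells. GGPS1, which makes geranylgeranyl diphosphate, had slopes of 0.24 and 0.19. Without the WT6 libraries at 5 and 25 ng/ml ACACA alone of these 3 lists passed in WT6 cells, as lower, and the slope of GGPS1 was 0.02 and that of ABCA1 -0.12. None of these genes passed limma's test in MUT3 cells in the fit over all libraries. With MUT3 fitted alone OSBP, of the list of sterol storage, transport and efflux, passed as higher.

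**Figure D4:**
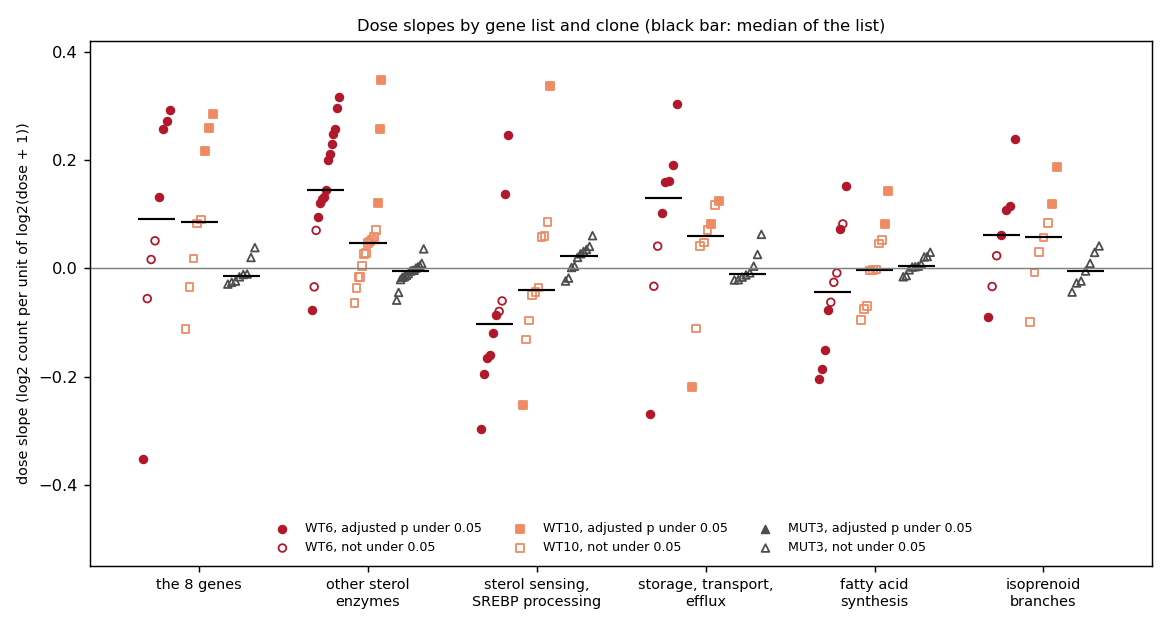
Dose slope of every fitted gene of the 8 described here and of the 5 related lists, by clone, with filled markers where the adjusted p is under 0.05 and a black bar at the median of each list. The MUT3 slopes cluster around 0 in every list, and the medians in WT6 cells range from -0.10 for sterol sensing to 0.14 for the other sterol enzymes.

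With the values of each clone centred on its own mean, HMGCS1, IDI1 and INSIG1 had pairwise Pearson correlations between 0.91 and 0.95 over the 15 libraries, which share their doses and size scaling. FDFT1 correlated with these 3 genes at 0.83 to 0.87, and SREBF2 at -0.71 to -0.84. LSS went with SREBF2 (0.76) and not with HMGCS1 (-0.46). These values include the WT6 libraries at 5 and 25 ng/ml, which held the highest WT6 values of FDFT1 and the lowest of SREBF2 and LSS. Without those libraries the WT6 dose slopes were 0.010 for FDFT1, -0.11 for SREBF2 and -0.0068 for LSS. Correlations without them were not computed. SQLE correlated with HMGCS1, IDI1 and INSIG1 at 0.53 to 0.56. Outside the lists, the 10 genes whose pattern was most like the mean of the 8 were SLC24A6 (Pearson's r = 0.97), LAMB3 (0.97), ABHD4 (0.96), CLTCL1 (0.95), ABCB6 (0.95), ATP6V0A1 (0.95), ACADVL (0.95), DAGLB (0.94), B4GALNT1 (0.94) and MFI2-AS1 (0.94), among all genes fitted. That mean joins genes that moved in opposite directions. The 8 genes themselves correlated with it at 0.83 (FDFT1), 0.82 (INSIG1), 0.78 (HMGCS1), 0.78 (DHCR7), 0.74 (IDI1), 0.69 (SQLE), 0.08 (LSS) and -0.40 (SREBF2).

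In the annotation of hg19, 6 of the 8 genes overlap an annotated gene on the opposite strand, SQLE and INSIG1 being the exceptions. SREBF2 and IDI1 also hold a small RNA gene on their own strand, MIR33A in SREBF2. Whether the libraries kept the strand is not given in the sources used here, so reads of these partners cannot be told apart from those of the gene if they did not.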

How the data were processed

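Poly(A)-selected RNA of 15 libraries was sequenced by the authors, mapped to hg19 with STAR and counted per gene with HTSeq 0.5.4 at default settings; the annotation is not given in the sources used here. The deposited values are a signal, the read count of a gene divided by the DESeq size factor of its library. Whole reads were recovered from the value of 1 read (100% of values whole within 0.01). Reads assigned to no gene made up 56.5 to 59.6% of those tallied. A floor of 3 reads equals 1.19 to 4.09 normalized counts, and intervals of 95% (Clopper-Pearson) cover counting error only.

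Slopes were fitted with limma 3.58.1 and vooma weights in R 4.3.3 on log2(normalized count + 1), with 6 coefficients and 9 residual degrees of freedom, for the 12644 genes with a mean of at least 10 in each clone. Adjusted p is Benjamini-Hochberg over all of them, two-sided, called under 0.05. Alternatives were other pseudocounts and filters, no weights, edgeR 4.0.16 on whole reads, other dose codings, RBM47 in place of dose, doses or libraries left out, clones fitted alone, and splines (4 degrees of freedom) on transcript length and GC content. The fit was tested on simulated data. Annotation of 91.9% of genes in the table came from GENCODE and RefSeq symbols. The genes and lists were chosen with earlier results of these data known. All 8 genes are named; of each list, at most the 4 called genes with the largest slopes; and the 10 genes most like the mean of the 8. Other processing used Python 3.11.15, pandas 2.3.3 and scipy 1.17.1.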

Additional observations from a re-analysis of the deposited data

Results flagged for a closer look

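Dose slopes that differed between clones by the test of the difference itself (limma, adjusted over 12644 genes) are given here as values. For the mean wild type slope minus the MUT3 slope these were INSIG1 (0.28, adjusted p = 0.00069), IDI1 (0.28, 0.0010), HMGCS1 (0.23, 0.0085) and FDFT1 (0.13, 0.026), each positive. For WT10 minus MUT3 they were INSIG1 (0.30, 0.0042) and IDI1 (0.28, 0.0094).

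Between WT6 and WT10 cells 0 of the 8 genes differed in slope, and 8 genes of the related lists did. Over all genes fitted, 7.28% were called higher in WT6 and 7.09% lower. The enzymes TM7SF2 (0.36, limma, adjusted p = 0.020), NSDHL (0.25, 0.012), FDPS (0.20, 0.031), EBP (0.18, 0.044) and PMVK (0.16, 0.044) had the higher slope in WT6 cells, as did CYP27A1 (0.52, 0.015), whose difference was 0.24 (0.35) without the WT6 library at 25 ng/ml. FAF2 (-0.12, 0.035) and PGGT1B (-0.17, 0.041) had the lower slope in WT6 cells. Of these differences 0 were called without the WT6 libraries at 5 and 25 ng/ml. With the trends of transcript length and GC content removed TM7SF2 (0.22), EBP (0.04), PGGT1B (-0.03) and PMVK did not pass. These libraries' part in the differences was not tested further. Each clone and dose has 1 library, so no library could be compared with a replicate.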

How the results depend on the processing

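No paired analysis was possible because each clone and dose has 1 library and the labels give no replicate numbers. No slope of the 8 genes that passed the test changed sign under any alternative run. The setting chosen after seeing the data, without the WT6 libraries at 5 and 25 ng/ml, gave 2 genes passing in WT6 (1.44% of all genes called), 6 in WT10 (38.9%), 5 for WT10 minus MUT3 (24.2%), and 5 for the level of WT10 against MUT3 (46.7%). With RBM47 RNA in place of dose 0 passed in WT6, WT10, the mean wild type slope minus MUT3 and WT10 minus MUT3, where limma called 1, 88, 0 and 0 of all genes. Without the 3 libraries at 25 ng/ml 0 passed in WT10 and in both comparisons with MUT3, where 17, 1 and 0 of 12644 genes were called; the mean wild type slope minus MUT3 was then 0.29 for IDI1 and 0.20 for INSIG1, and in WT6 LSS passed in addition. Dose in ng/ml gave 1 for WT10 minus MUT3 (1.61% of all genes called), and rank of dose 1 for WT6 minus WT10 (16.6%). Removing trends of length and GC content gave 1 for WT6 minus WT10 (15.2%) and 5 for the level of WT10 against MUT3 (42.6%). With 1 library left out at a time, the counts ranged from 4 to 5 in WT6 (without the library at 25 ng/ml FDFT1 had an adjusted p of 0.075), 0 to 5 in WT10, 0 to 5 for the mean wild type slope minus MUT3, 0 to 3 for WT10 minus MUT3, 0 to 1 for WT6 minus WT10, and 3 to 5 for the level of WT10 against MUT3. The shares of all genes called in those fits ran from 36.6 to 62.4% in WT6 and from 0.0475 to 32.8% in WT10. They ran from 0.0237 to 38.9% for the mean wild type slope minus MUT3 and from 0 to 17.9% for WT10 minus MUT3. For WT6 minus WT10 they ran from 0.467 to 29.4%, and for the level of WT10 against MUT3 from 16.6 to 40.8%.

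Slopes that changed sign, those of TM7SF2, NPC2, PGGT1B and FDPS among those that had passed the test, were these. Without 25 ng/ml DHCR7 was -0.044 in WT6 and -0.14 in WT10, SQLE -0.0057 and FDFT1 -0.030 in WT10. DHCR7 in WT10 was -0.0053 with ranks and -0.0092 with RBM47 RNA, and LSS 0.0041 with trends removed. In the setting without the 2 WT6 libraries DHCR7 was -0.028, TM7SF2 -0.0072 and NPC2 -0.027 in WT6, and for WT6 minus WT10 SREBF2 was 0.0049 and FDPS -0.027. PGGT1B in WT6 was 0.013 without 25 ng/ml, 0.039 with trends removed and 0.048 without the 2 libraries. Leaving out single libraries gave ranges of -0.0066 to 0.064 for SQLE and -0.044 to 0.080 for DHCR7 in WT6, -0.12 to 0.013 for PGGT1B in WT6, and in WT10 -0.0057 to 0.12 for SQLE, -0.030 to 0.13 for FDFT1, -0.14 to 0.0011 for LSS and -0.14 to 0.077 for DHCR7. FDFT1 for WT10 minus MUT3 ranged from -0.0070 to 0.15.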
